A study of Mus musculus with 12 samples.

Results

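The comparison described here is that of host genotype over both exposures: the arrays labelled P65 KO were set against the arrays labelled wild type, and the difference measured in air and the difference measured in smoke were averaged at equal weight. All 12 of the 12 arrays entered it, 6 against 6. They form 4 groups of 3 arrays, namely RelA/p65 deficient hosts in air, wild type hosts in air, RelA/p65 deficient hosts with smoke exposure, and wild type hosts with smoke exposure. Every host was a female C57BL/6 mouse bearing Lewis lung carcinoma, a transplantable mouse lung tumour line, and total RNA of the tumour tissue dissected from the lung was hybridised to Affymetrix mouse gene arrays. The series title speaks of myeloid cells, but the promoter that drove the deletion, the deleted part of the gene, the age of the hosts and the dose and length of smoke exposure are not given in the sources used here. No label says that the arrays of a group came from separate mice, so the spread that the p-values rest on may be that of the assay alone.

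RelA, also called p65, is a subunit of NF-kB, a family of dimeric transcription factors held in the cytoplasm by IkB proteins until cytokine or microbial signals lead to IkB degradation. NF-kB then enters the nucleus and drives genes for chemokines, cytokines, adhesion molecules and survival factors. In macrophages and neutrophils, which belong to the myeloid cells, it is known as a driver of the inflammatory response, and inflammation of this kind is known to accompany the growth of lung tumours.

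Values are log2 expression as the authors deposited them, on the scale of the RMA method, and a difference of 1 is a 2-fold difference. Every difference is given as P65 KO minus wild type, ± its standard error (SE) from limma, a linear model fitted across all genes. A gene is said to be called, or to have risen or fallen, when its Benjamini-Hochberg adjusted p over all 19937 genes was under 0.05. The median of an array lay between 7.26 and 7.51 and differed by genotype without overlap. It was 7.44 to 7.51 in P65 KO arrays and 7.26 to 7.41 in wild type arrays, lowest in wild type smoke (7.26 to 7.36). Counts depend on this offset: with each array centred on its median 11939 genes were called lower, against 7181 as deposited. Arrays of a group correlated with r of 0.990 to 0.998 across genes, and no pair of arrays held identical values. Precision is set by the number of arrays, which was 3 a group.

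Rela itself was not lower in the arrays labelled P65 KO. Its level was 9.45, 9.44 and 9.38 in P65 KO air, against 9.25, 9.16 and 9.26 in wild type air. In smoke it was 9.30, 9.37 and 9.27 in P65 KO arrays, against 9.04, 9.01 and 9.19 in wild type arrays. The 6 P65 KO values all lay above the 6 wild type values, and the averaged difference was 0.22 ± 0.05 (adjusted p = 0.001303), or 0.11 with each array centred on its own median. A single probe set names the gene, and whether its probes lie in the deleted part is not given in the sources used here. The tissue also held cells of the transplanted tumour line, which do not carry the host genotype. For both reasons the level of Rela does not check the labels. The groups are therefore named as arrays labelled P65 KO, or P65 KO arrays for short, and every direction below rests on those labels.

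Levels of lung markers in the tissue are given ahead of the gene counts. Sftpc, which encodes surfactant protein C of alveolar type II cells, stood between 12.24 and 14.15 in all 12 arrays, so RNA of lung epithelium was present in every sample. The mean of 23 alveolar epithelial markers was 11.19 to 11.22 in P65 KO air, 10.31 to 10.50 in wild type air, 11.14 to 11.27 in P65 KO smoke and 8.48 to 8.62 in wild type smoke. In tissue of this kind, fewer cells of a type and less RNA per cell cannot be told apart.

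Averaged over the exposures, 12177 genes were called (61.1% of genes tested), of which 4996 were higher in P65 KO arrays (25.1%) and 7181 were lower (36%). The higher genes were thus 41% of those called, and 25.2% with each array centred on its median, a setting that moved the median of all genes to -0.20, against -0.09 as deposited. In air by itself 38.5% of genes were called, and in smoke 59.6%. A gene was counted as shared by air and smoke when it was called in the average, in air and in smoke, moved the same way in both, and its larger log2 difference was at most 1.5 times the smaller. By this rule 3507 genes were shared, 28.8% of those called on average and 17.6% of genes tested. They were 1356 genes higher in P65 KO arrays (6.8% of genes tested) and 2151 genes lower (10.8%). The counts of every gene list below are to be read against these shares of all genes.

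The remaining called genes show how the average can be reached in other ways. Among them 3090 were called in both exposures in the same direction but with unequal size, 2629 of these larger in smoke and 461 larger in air. Another 4079 were called in smoke but not in air and 799 in air but not in smoke, while 675 were called in neither exposure and passed in the average. The interaction was called for 569 of the 4079 and 208 of the 799, so for most of these genes the exposures were not shown to differ. In 27 genes the direction was opposite in the 2 exposures. The rule has a sharp edge: Slc5a3, a myo-inositol transporter with differences of -1.70 in air and -1.13 in smoke, lay just inside it, while Nxt2, a nuclear export factor at 1.12 in air and 1.68 in smoke, lay just outside.

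**Figure D1:**
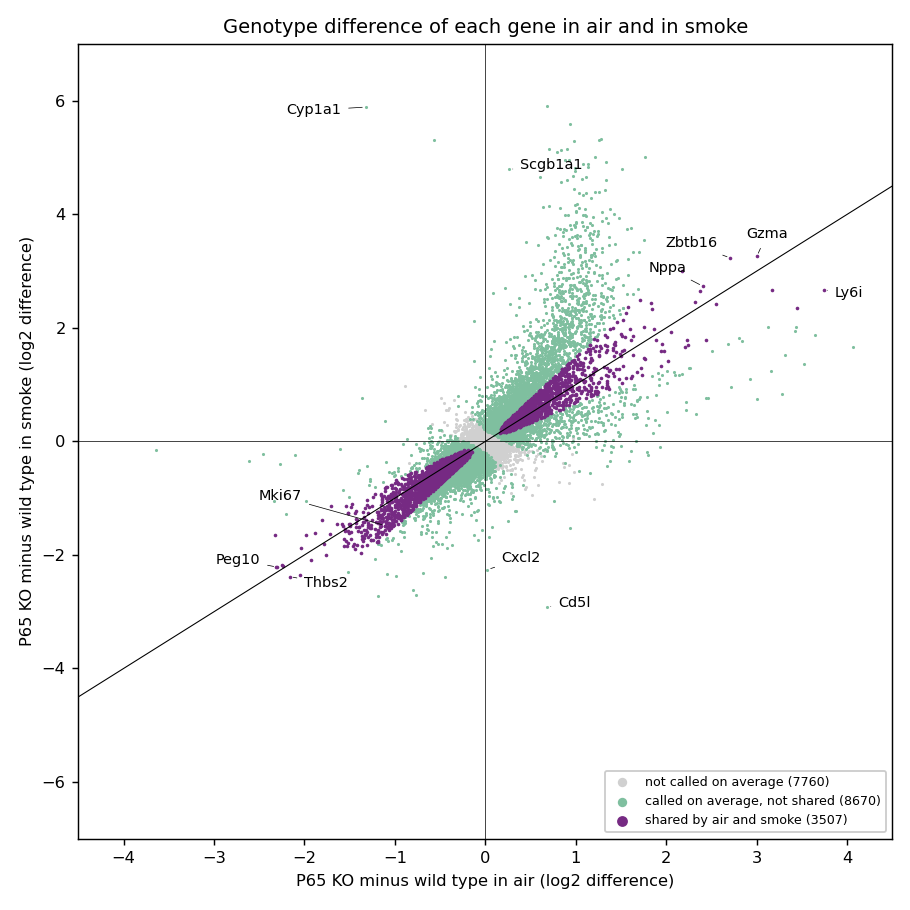
Genotype difference of each of 19937 genes in air (horizontal axis, log2) and in smoke (vertical axis, log2), with the line of equal differences. The 3507 shared genes lie in 2 wedges along the line by construction, the cloud of not shared genes rises steeply to the upper right where the smoke difference exceeds that in air, and Cyp1a1, Cd5l and Cxcl2 lie far from the line.

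The 12 largest shared rises included genes of cytotoxic lymphocytes and of the interferon response. These 12 were chosen among shared genes without overlap between the genotypes, so their lack of overlap is set by the choice. Gzma encodes granzyme A, a protease of cytotoxic T cells and natural killer (NK) cells. Its level was 9.89, 9.88 and 9.87 in P65 KO air, against 7.08, 6.65 and 6.91 in wild type air, and 8.78, 8.94 and 8.87 in P65 KO smoke, against 5.55, 5.46 and 5.80 in wild type smoke. The P65 KO arrays were higher in both exposures with no overlap, by 3.13 ± 0.08 on average (8.75-fold; adjusted p = 2.519e-12), and the difference in smoke minus that in air was 0.26 (95% interval -0.07 to 0.59). Nkg7, a protein of cytotoxic granules, was higher by 2.38 ± 0.05 (adjusted p = 1.431e-12), with 2.32 in air and 2.45 in smoke. Cd3g, a chain of the T cell receptor complex, was higher by 2.14 ± 0.06, and its difference in smoke exceeded that in air by 0.61 (adjusted p = 0.001985).

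Ly6i, a surface protein of the Ly6 family that is induced by interferon in mouse cells, had the largest averaged rise of these 12 genes. It stood at 10.34, 10.27 and 10.21 in P65 KO air, against 6.82, 6.29 and 6.48 in wild type air. In smoke it stood at 8.99, 9.35 and 8.73 in P65 KO arrays, against 6.76, 6.14 and 6.17 in wild type arrays. The averaged difference was 3.21 ± 0.13 (9.23-fold; adjusted p = 1.616e-10), and it was smaller in smoke than in air by 1.07 (adjusted p = 0.01235), so that the sizes differed by a test although the rule counts them as similar. The transcription factor Zbtb16, known from natural killer T cells and as a glucocorticoid-induced gene, was higher by 2.97 ± 0.07 (adjusted p = 1.426e-12), from P65 KO levels of 9.95 to 10.23 against wild type levels of 6.79 to 7.59. Lcn2, a siderophore-binding protein of neutrophils and epithelium, was higher by 2.59 ± 0.09, and Nppa, the atrial natriuretic peptide, by 2.57 ± 0.07. AW112010, an interferon-inducible mouse transcript, rose by 2.51 ± 0.11 and the chemokine Ccl5 by 2.48 ± 0.12. The GTPase genes Gbp4 and Iigp1 and the chemokine Cxcl10 complete the 12 largest shared rises and are described with the interferon genes.

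The 12 largest shared falls included genes of the matrix, of mesenchymal cells and of Wnt signalling, and an imprinted gene. They too were chosen among genes without overlap between the genotypes. Thbs2 encodes thrombospondin 2, a matrix protein. It stood at 9.47, 9.0 and 9.35 in P65 KO air, against 11.39, 11.44 and 11.48 in wild type air, and at 9.44, 8.87 and 9.34 in P65 KO smoke, against 11.57, 11.64 and 11.58 in wild type smoke. The P65 KO arrays were lower in both exposures with no overlap, and the averaged difference was -2.27 ± 0.10 (4.83-fold lower; adjusted p = 2.606e-10). Islr, an immunoglobulin-domain protein of mesenchymal stromal cells, differed by -2.26 ± 0.05 (adjusted p = 2.519e-12), with -2.32 in air and -2.21 in smoke.

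Peg10, an imprinted gene derived from a retrotransposon, had nearly the same difference in both exposures. Its level was 6.77, 6.71 and 6.83 in P65 KO air, against 8.90, 9.08 and 9.23 in wild type air, and 6.81, 6.65 and 6.81 in P65 KO smoke, against 9.05, 8.99 and 8.88 in wild type smoke. The exposures hardly moved it, and the genotype difference was -2.30 in air and -2.21 in smoke (averaged -2.26 ± 0.06; adjusted p = 5.849e-12). The growth factor pleiotrophin, Ptn, fell by 2.21 ± 0.09, with wild type smoke arrays (8.66 to 8.79) below wild type air arrays (9.42 to 9.59) and P65 KO smoke arrays (6.47 to 6.62) below P65 KO air arrays (6.88 to 7.51). Raet1d, a ligand of the NK cell receptor NKG2D, fell by 2.20 ± 0.24, and its P65 KO smoke values of 8.17, 6.17 and 7.10 were widely spread. Dkk2, a secreted regulator of Wnt signalling, fell by 2.01 ± 0.11, and S100a4, a calcium-binding protein of motile cells, by 1.79 ± 0.13. The urea transporter Slc14a1, the muscle filamin Flnc, Sertad4, Nxf3 and Gm773 were the other members of the 12 largest shared falls, with averaged differences of -1.82 to -2.21.

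**Figure D2:**
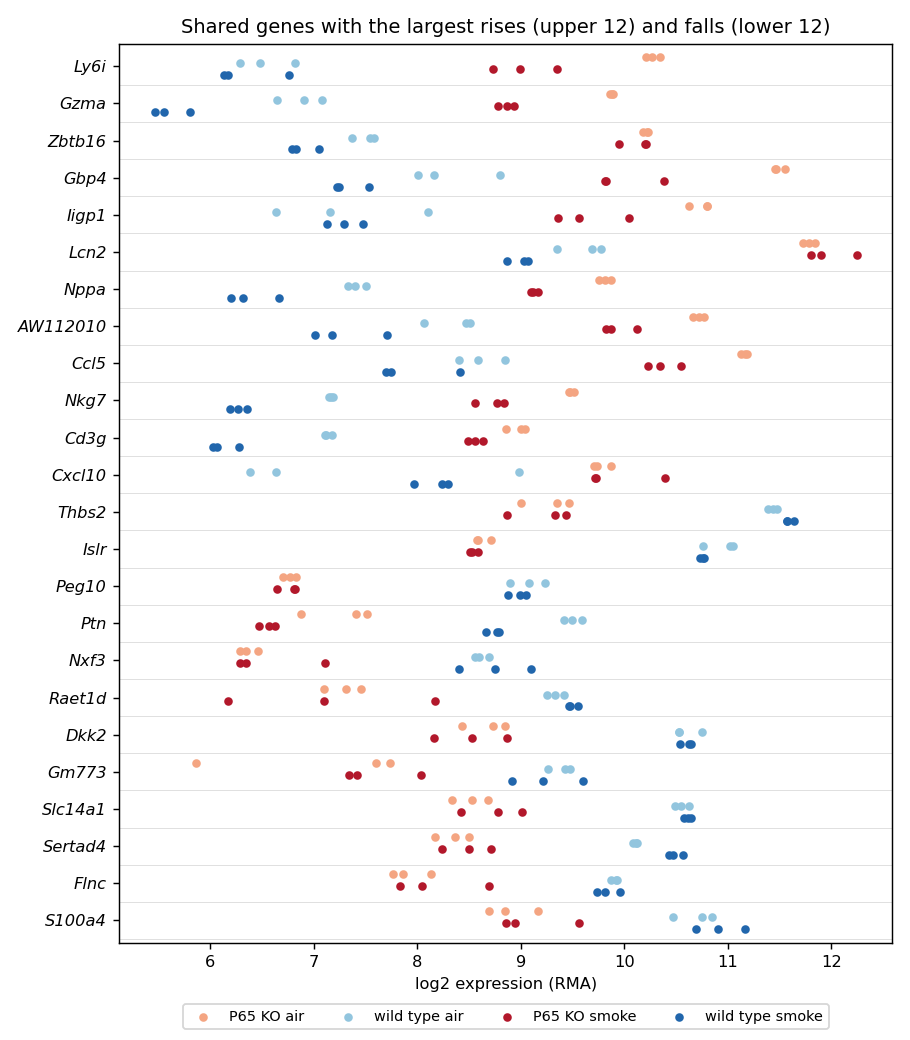
Log2 expression (RMA, horizontal axis) in each of the 12 arrays for the 12 largest shared rises (upper rows) and the 12 largest shared falls (lower rows). Orange and red points are P65 KO arrays, light and dark blue points are wild type arrays, and the 24 genes were chosen among those whose P65 KO and wild type arrays do not overlap, so the gap is set by the choice. The spread within a group differs by gene, as in Raet1d with P65 KO smoke values of 8.17, 6.17 and 7.10.

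Genes of cell division were lower in P65 KO arrays in both exposures. All 32 measured mitotic genes were called lower on average, and 27 were shared, against 36% and 10.8% of all genes. Their median difference was -1.27, with -1.12 in air and -1.46 in smoke, against a median of -0.09 over all genes. The fall was larger in smoke for all 32, where 9398 of all 12177 called genes had the larger difference in smoke. Averaged differences of the 32 members ran from -1.60 for Ccnb2, cyclin B2 of the mitotic kinase, to -0.71 for Cdc25b, a phosphatase that activates it. The mean of the list was 8.37, 8.16 and 8.19 in P65 KO air, against 9.43, 9.29 and 9.31 in wild type air, and 8.55, 8.01 and 8.12 in P65 KO smoke, against 9.79, 9.70 and 9.64 in wild type smoke. P65 KO smoke replicate 1 stood nearest to the wild type arrays, and without it 14 of the 32 members were shared. The count of shared members also depended on the ratio, with 7 at a stricter limit.

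Mki67, which encodes the proliferation antigen Ki-67, showed the spread of a single member. It stood at 9.11, 8.87 and 8.85 in P65 KO air, against 10.17, 10.03 and 9.96 in wild type air, and at 9.34, 8.70 and 8.80 in P65 KO smoke, against 10.45, 10.49 and 10.33 in wild type smoke. No P65 KO value reached a wild type value, and the difference was -1.29 ± 0.10 (2.45-fold lower; adjusted p = 7.905e-08). The kinetochore gene Cenpf differed by -1.48 ± 0.08 (adjusted p = 1.781e-09), with P65 KO levels of 7.18 to 7.64 and wild type levels of 8.60 to 9.27, and its fall was larger in smoke by 0.57 (adjusted p = 0.02233). Kif2c, a microtubule-depolymerising kinesin, differed by -1.50 ± 0.08 and the spindle checkpoint kinase Bub1b by -1.27 ± 0.07. The mean of the alveolar markers was higher in P65 KO arrays by the values above in the same comparison, and their part in the fall of the mitotic genes was not tested.

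The promoters of mitotic genes are known for CCAAT boxes and for the cell cycle homology region, which reads TTTGAA or TTTCGAA. The 250 bases before the annotated start of the 3 shared mitotic genes with the smallest p are shown to let these letters be seen in place. Sequences are from RefSeq for GRCm38.p6, each 5′ to 3′ on the strand of its gene, with a match to either motif in capitals. Both strands were searched, so a match may stand in its reverse complement, as in Kif2c and Bub1b. Cenpf lies on the minus strand at chr1:189688087-189688336, Kif2c on the minus strand at chr4:117178773-117179022 and Bub1b on the plus strand at chr2:118597961-118598210.
Cenpf: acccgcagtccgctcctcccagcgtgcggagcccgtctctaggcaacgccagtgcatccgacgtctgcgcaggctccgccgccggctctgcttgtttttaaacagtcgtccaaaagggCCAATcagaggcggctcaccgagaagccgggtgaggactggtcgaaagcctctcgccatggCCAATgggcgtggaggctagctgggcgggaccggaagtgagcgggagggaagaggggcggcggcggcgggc
Kif2c: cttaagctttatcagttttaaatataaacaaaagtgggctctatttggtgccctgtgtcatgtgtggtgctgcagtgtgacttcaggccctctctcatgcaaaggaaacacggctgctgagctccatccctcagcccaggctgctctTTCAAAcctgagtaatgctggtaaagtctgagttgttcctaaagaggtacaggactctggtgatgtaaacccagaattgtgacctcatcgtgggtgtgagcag
Bub1b: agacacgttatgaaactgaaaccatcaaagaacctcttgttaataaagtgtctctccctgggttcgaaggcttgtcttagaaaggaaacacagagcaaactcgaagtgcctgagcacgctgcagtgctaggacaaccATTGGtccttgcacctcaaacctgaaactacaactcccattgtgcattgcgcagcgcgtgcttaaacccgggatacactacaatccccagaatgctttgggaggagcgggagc

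Of 27 shared mitotic genes 22 had such a window in the table, 24 windows in all. CCAAT on either strand stood in 19 of them (79.2%), against 33.8% of all 32851 windows of 27025 genes, and TTTGAA or TTTCGAA in 10 (41.7%), against 16.5%. In windows of all measured mitotic genes, shared or not, the shares were 75% and 35.7%. The shares are thus those of the mitotic list and not particular to its shared members. Over the shared genes as a whole the shares were near those of all windows or below them. CCAAT stood in 36.7% of windows of shared lower genes and 33.4% of shared higher genes, and TTTGAA or TTTCGAA in 12.3% and 12.7%. The motifs were searched separately, and matches of different motifs may overlap. A match says that the letters are present and not that a factor binds them.

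DNA replication genes moved the same way as the mitotic genes, with smaller differences. All 32 measured members fell and 25 were shared, with a median of -0.91 (-0.80 in air and -1.01 in smoke). Cdt1, which loads the replicative helicase, stood at 9.03, 8.80 and 8.84 in P65 KO air, against 9.98, 9.76 and 9.83 in wild type air, and at 9.22, 8.78 and 8.86 in P65 KO smoke, against 10.21, 10.22 and 10.21 in wild type smoke. P65 KO arrays were lower throughout, and the averaged difference of Cdt1 was -1.11 ± 0.07 (adjusted p = 2.497e-08). Thymidine kinase, Tk1, differed by -1.19 ± 0.08 and Rfc4, a subunit of the clamp loader, by -1.02 ± 0.07. The fall was larger in smoke for 31 of the 32 members. For the helicase subunits Mcm3, Mcm4 and Mcm7 it was larger by little, with -0.96 and -1.02, -0.84 and -0.90, and -1.03 and -1.07 in air and in smoke.

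All 16 genes of recombination repair and fork protection fell, and 13 were shared (median -0.91). Each of the 16 falls was larger in smoke. Brca1, a tumour suppressor of homologous recombination, differed by -1.23 ± 0.10 (adjusted p = 1.582e-07), with -1.16 in air and -1.29 in smoke. The Fanconi anaemia gene Fanca differed by -1.25 ± 0.08, the helicase Brip1 by -1.01 ± 0.07 and the checkpoint kinase Chek1 by -1.31. Of 16 histone and chromatin assembly genes 13 fell and 1 rose, and 8 of those that fell were shared, among them Uhrf1, which guides maintenance of DNA methylation (-1.19 ± 0.10), and the histone variant gene H2ax (-1.01 ± 0.08). At the stricter limit on the ratio the shared members were 14 of 32 replication genes and 8 of 16 repair genes.

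Regulators of the step from G1 to S phase were divided. Of 21 members 12 fell and 8 rose, and the shared members were 8 lower and 2 higher. The transcription factors E2f1 and E2f3, which drive S phase genes, differed by -0.84 ± 0.07 and -0.85 ± 0.08. Rb1, the retinoblastoma protein that binds E2F factors, rose. It stood at 9.12, 9.31 and 9.15 in P65 KO air, against 8.29, 8.14 and 8.36 in wild type air, and at 8.94, 9.09 and 8.92 in P65 KO smoke, against 8.16, 7.68 and 7.78 in wild type smoke. The P65 KO arrays were above the wild type arrays in both exposures, by 1.02 ± 0.08 for Rb1 (adjusted p = 1.091e-07). Cyclin D1, Ccnd1, had a difference of -0.19 ± 0.07 (adjusted p = 0.02204), which passed in the average but in neither exposure by itself, with -0.18 in air and -0.21 in smoke. That call was lost without wild type air replicate 1 (-0.15) and without P65 KO smoke replicate 2 or 3 (-0.16 and -0.18).

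Ribosome genes were lower too, with small differences. Of 21 ribosome biogenesis genes all fell and 12 were shared (median -0.60), among them Nop58, a protein of small nucleolar particles (-0.95 ± 0.07), and Polr1c, a subunit of RNA polymerases I and III (-0.57 ± 0.05). Of 19 cytosolic ribosomal protein genes 17 fell and 16 were shared, with a median of -0.36. Rplp0, a protein of the ribosomal stalk, stood at 13.04, 12.92 and 12.92 in P65 KO air, against 13.45, 13.36 and 13.32 in wild type air, and at 13.10, 12.95 and 12.96 in P65 KO smoke, against 13.47, 13.43 and 13.51 in wild type smoke. Its difference was -0.45 ± 0.05 (adjusted p = 2.538e-06). Ribosomal protein genes have many near-identical processed copies in the genome, and probe sets can read more than 1 of them. Of 24 respiratory chain genes 15 fell and 1 rose, with a median of -0.17 and 7 shared members, or 4 without P65 KO air replicate 2.

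Amino acid and unfolded protein response genes were divided. Of 22 amino acid and unfolded protein response genes 10 fell and 6 rose, and 8 of the 10 that fell were shared. Slc7a5, a transporter of large amino acids, differed by -1.36 ± 0.07 (adjusted p = 1.148e-09), and the serine synthesis genes Phgdh and Psat1 by -1.03 and -0.98. Asns, asparagine synthetase, differed by -0.80, with -0.81 in air and -0.79 in smoke, and Atf4, the transcription factor of this response, by -0.34. Herpud1, a protein of endoplasmic reticulum degradation, was the 1 shared member that rose, by 1.01 ± 0.05. Chaperone genes of the same list had small differences, with Hspa5 at -0.18 and Hsp90b1 at -0.03, which was not called.

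Collagens and other matrix genes moved in both directions. Of 22 collagen genes 14 fell and 6 rose, and 8 were shared, none of them among those that rose (5 at the stricter limit). Col3a1, the fibrillar collagen III, stood at 11.18, 10.90 and 11.23 in P65 KO air, against 12.39, 12.49 and 12.61 in wild type air, and at 11.27, 11.10 and 11.33 in P65 KO smoke, against 12.74, 12.72 and 12.76 in wild type smoke. The arrays did not overlap and the difference was -1.45 ± 0.07 (adjusted p = 4.971e-10). The 3 chains of collagen VI, Col6a1, Col6a2 and Col6a3, differed by -0.92, -0.98 and -1.16. The collagen I chains, which form 1 protein, went apart, Col1a1 at -0.77 and Col1a2 at 1.14, and neither was shared. In the list of 25 fibroblast and matrix genes 13 rose and 10 fell, with a median of 0.29, and the shared members were 1 that rose and 5 that fell, Thbs2 and S100a4 among them. Of those that fell, fibronectin, Fn1, a matrix protein made by many cells, differed by -0.99 ± 0.05 (adjusted p = 1.61e-09), with -1.03 in air and -0.95 in smoke, and versican, Vcan, by -1.62 ± 0.11.

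Among 19 mesenchymal transition genes 10 fell and 4 rose. Prrx1, a homeobox transcription factor of mesenchyme, differed by -1.67 ± 0.08, and Twist1, a factor that represses epithelial genes, by -1.59 ± 0.09 (adjusted p = 5.296e-09). Zeb2, another repressor of epithelial genes, rose by 0.54 and Tgfb2 by 0.54. Among 23 matrix proteinases and inhibitors 13 fell and 6 rose, with 6 shared, and the membrane proteinase Mmp14 differed by -1.19 ± 0.06, the urokinase Plau by -1.49 and the plasminogen activator Plat by -0.86 ± 0.05. Plau had -1.50 in air and -1.49 in smoke. Mmp8, a collagenase of neutrophils, rose by 1.05 ± 0.07. The growth factor receptors Fgfr1 and Egfr fell by 1.20 ± 0.06 and 1.05 ± 0.05, both more in smoke, by -0.41 (adjusted p = 0.02922) and -0.34 (adjusted p = 0.0417).

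Wnt pathway genes and p53 targets were divided. Of 26 Wnt/beta-catenin targets and regulators 13 fell and 10 rose (median -0.11), with Dkk2 and the Wnt inhibitor Apcdd1 (-1.67 ± 0.07) among the 4 shared falls and Sfrp1, a secreted Wnt antagonist (1.13 ± 0.08), and the transcription factor Lef1 (0.65) as the 2 shared rises. Beta-catenin, Ctnnb1, differed by 0.13 ± 0.04 (adjusted p = 0.01204), called in smoke but not in air, and that call was lost with quantile normalization (0.09) and with median centring (0.02). Axin2, a feedback inhibitor that beta-catenin induces, differed by 0.23 ± 0.05, with 0.05 in air and 0.42 in smoke. Of 15 p53 targets 7 rose and 4 fell, and the shared members were 3 that fell: the stress gene Gadd45a (-1.05 ± 0.06), Zmat3 (-0.71 ± 0.10) and Sesn1 (-0.43 ± 0.07). The median of that list was 0.04, or -0.07 with each array centred on its median.

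Markers of T and NK cells were higher in P65 KO arrays in both exposures. Of 30 measured markers 28 rose and none fell, and 17 were shared, against 25.1% of all genes called higher and 6.8% shared higher. The median difference was 0.72, with 0.80 in air and 0.61 in smoke. The mean of the list was 7.36, 7.31 and 7.35 in P65 KO air, against 6.40, 6.33 and 6.28 in wild type air, and 6.97, 7.08 and 7.08 in P65 KO smoke, against 6.04, 6.19 and 6.27 in wild type smoke. Markers of T cells and of NK cells were both among them: Cd8a, the co-receptor of cytotoxic T cells, was higher by 1.15 (1.17 in air and 1.12 in smoke), Cd4, that of helper T cells, by 0.73, and Ncr1, an activating receptor of NK cells, by 1.61 (1.76 and 1.45). Foxp3, the transcription factor of regulatory T cells, and Eomes, a factor of cytotoxic and NK cells, were not called, at -0.14 and 0.12. Gzmb and Prf1, the granzyme and the pore protein of the same granules as granzyme A, rose by 2.20 and 1.00 but were not shared, with larger differences in air (2.69 and 1.51) than in smoke (1.71 and 0.48).

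MHC class II genes, which present antigen to helper T cells, rose in every measured member. All 8 were called and 6 were shared, with a median of 1.69 (1.82 in air and 1.66 in smoke). H2-Eb1, a class II beta chain, stood at 12.23, 12.31 and 12.26 in P65 KO air, against 10.88, 10.50 and 10.60 in wild type air, and at 11.92, 12.09 and 11.88 in P65 KO smoke, against 10.17, 10.14 and 10.22 in wild type smoke. The difference was 1.69 ± 0.06 (3.24-fold; adjusted p = 9.04e-11), and in smoke it exceeded that in air by 0.18, which was not called (adjusted p = 0.3918). Cd74, the invariant chain that escorts class II molecules, was higher by 2.09 ± 0.08 (4.24-fold), and H2-DMa, which helps to load peptide, by 1.63 ± 0.07, less in smoke by 0.61 (adjusted p = 0.007791). Ciita, the coactivator that switches class II genes on, rose by 1.28 without being shared (1.78 in air and 0.78 in smoke). Class II chains of this locus are alike in sequence, so probe sets can read more than 1 of them.

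Class II promoters are known for a conserved module whose last box, the Y box, holds the letters CCAAT. The 250 bases before the start of H2-Eb1 in RefSeq, GRCm38.p6, plus strand, chr17:34305617-34305866, are given with CCAAT in capitals, once in its reverse complement.
H2-Eb1: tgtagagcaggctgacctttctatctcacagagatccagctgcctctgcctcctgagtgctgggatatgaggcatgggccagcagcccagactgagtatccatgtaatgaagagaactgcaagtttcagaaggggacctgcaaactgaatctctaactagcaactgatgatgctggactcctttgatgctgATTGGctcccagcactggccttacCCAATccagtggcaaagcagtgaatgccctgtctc
Of the shared class II genes 4 had windows, 5 in all, and 4 of these (80%) held CCAAT, against 33.8% of all windows. In windows of all measured class II genes, shared or not, the share was 83.3%.

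Interferon-induced genes rose, with different evenness by family. Of 26 antiviral interferon genes 23 rose, 1 fell and 13 were shared, with a median of 1.01 (1.09 in air and 0.86 in smoke). Ifih1, the RNA sensor MDA5, stood at 9.34, 9.42 and 9.40 in P65 KO air, against 8.06, 7.72 and 7.87 in wild type air, and at 8.97, 9.22 and 9.08 in P65 KO smoke, against 7.53, 7.16 and 6.90 in wild type smoke. The difference was 1.70 ± 0.09 (3.24-fold; adjusted p = 3.916e-09). Usp18, which removes the ubiquitin-like ISG15, rose by 1.51 ± 0.11 and Stat2, a transducer of the type I interferon signal, by 1.00 ± 0.07. Wild type air replicate 1 stood apart in this list, with a mean of 7.95 where replicates 2 and 3 had 7.29 and 7.33. The P65 KO arrays (8.31 to 8.64) all lay above it. The 1 member that fell was Ifi44l, at -0.19.

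The interferon-inducible GTPases, which attack vacuoles that hold microbes, had the largest median of any list, 2.44, but were less even. All 10 measured members rose, and each difference was larger in air than in smoke, with medians of 2.98 and 1.90. Gbp4, Gbp9 and Iigp1 were the 3 shared members. Without wild type air replicate 2 or wild type smoke replicate 1 the shared members were 5, and without P65 KO smoke replicate 3 they were 6. Gbp4 stood at 11.45, 11.56 and 11.46 in P65 KO air, against 8.80, 8.01 and 8.16 in wild type air, and at 9.81, 10.38 and 9.83 in P65 KO smoke, against 7.53, 7.24 and 7.23 in wild type smoke (averaged difference 2.92 ± 0.13; adjusted p = 4.971e-10). Iigp1 differed by 2.90 ± 0.20 and Gbp9 by 1.99 ± 0.10. Another 8 members of this family were not measured because their probe sets name several genes, and those that were measured have close relatives that probes can read.

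Of 17 genes of interferon-gamma signalling and its chemokines 11 rose and 3 fell, and 4 were shared, or 2 without wild type air replicate 1 or P65 KO smoke replicate 2. Those that fell were the feedback inhibitors Socs1 (-0.19) and Socs3 (-0.22) and Nos2, the inducible nitric oxide synthase (-0.28). Cxcl10, a chemokine that draws activated T cells, stood at 9.73, 9.71 and 9.88 in P65 KO air, against 8.98, 6.63 and 6.39 in wild type air, and at 9.73, 10.40 and 9.72 in P65 KO smoke, against 8.30, 8.24 and 7.97 in wild type smoke. The difference was 2.11 ± 0.34 (adjusted p = 0.0001325), with the same wild type air replicate 1 well above the other wild type air arrays. Its relative Cxcl9 rose by 1.97 ± 0.25. The receptor chains Ifngr1 and Ifngr2 rose by 0.67 ± 0.05 and 0.60 ± 0.04, evenly in both exposures, while Ifng itself was not called (0.09). In the class I pathway, which presents antigen to cytotoxic T cells, 10 of 11 genes rose. B2m, the light chain of class I molecules, rose by 0.51 in air and 0.51 in smoke, and Tapbp, which loads peptide, by 0.69 and 0.66. Ido1, Cd274 and Tap1 rose more in air (3.31, 2.44 and 2.17) than in smoke (1.52, 0.77 and 1.18).

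The promoter of Cxcl10 is shown because interferon-stimulated response elements are known to lie in promoters of this family. A simple form of such an element, GAAA, any 2 bases and GAAA again, was searched on both strands and is in capitals in the 250 bases before its start (RefSeq, GRCm38.p6, minus strand, chr5:92348890-92349139).
Cxcl10: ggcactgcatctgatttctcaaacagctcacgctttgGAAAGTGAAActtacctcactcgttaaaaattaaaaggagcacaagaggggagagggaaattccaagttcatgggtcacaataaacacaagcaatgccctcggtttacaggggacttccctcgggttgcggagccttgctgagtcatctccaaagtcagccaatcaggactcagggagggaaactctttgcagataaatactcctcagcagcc
These letters stood in 2.98% of all windows, in 5 of the 6 windows of measured GTPase genes (83.3%) and in 7 of the 20 windows of measured antiviral genes (35%). Of shared members they stood in 2 of 11 windows of antiviral genes (18.2%), and the shared GTPase genes had no window in the table. In the shared genes as a whole they stood in 3.88% of windows of higher genes and 2.71% of lower genes. A form of the NF-kB site, GGG, any 5 bases and CC, stood in 55.5% of windows of shared higher genes, 61.3% of shared lower genes and 45.8% of all windows. In the lists searched, its share of windows of measured members ran from 33.3% for the GTPase genes to 77.8% for the NF-kB targets. Ribosomal protein genes had 75%, collagens 73.7% and mitotic genes 71.4%, so a high share was not particular to NF-kB targets. The Cxcl10 window above also holds matches to this form, which are left in lower case. A form of the STAT site, TTCNNNGAA, stood in 6.39% of shared higher and 5.76% of shared lower windows, against 7.02% of all.

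Neutrophil markers rose in part, and most B and plasma cell markers rose. Of 21 neutrophil markers 11 rose and 2 fell, and 8 were shared, or 4 at the stricter limit on the ratio. Besides Lcn2, the shared members included S100a8 and S100a9, the calprotectin chains (0.69 and 0.63), the chemokine receptor Cxcr2 (1.06) and Retnlg (0.97 ± 0.06). Genes of the neutrophil granules were divided. Lcn2, Mmp8 and Ltf, the lactoferrin gene (1.5, not shared), rose, the protease gene Prtn3 fell (-0.34), and Mpo (-0.14), Elane (-0.07), Camp (-0.11), Ngp (-0.07) and Mmp9 (-0.33) were not called. Of 16 B and plasma cell markers 15 rose and none fell, with 5 shared, or 3 without P65 KO air replicate 1. Cd79b, a chain of the B cell receptor complex, rose by 1.16 ± 0.07 and the co-receptor Cd22 by 0.61 ± 0.05. Fscn1, an actin-bundling protein of mature dendritic cells and of tumour cells, fell by 1.46 ± 0.09, while Ccr7, the homing receptor of mature dendritic cells, rose by 0.65 ± 0.05.

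Clock genes mostly rose, and immediate early genes rose in part. Of 17 circadian clock genes 12 rose and 2 fell, and 6 were shared. Nr1d2, which encodes the repressor REV-ERB beta, stood at 10.55, 10.60 and 10.44 in P65 KO air, against 9.13, 9.01 and 9.01 in wild type air, and at 9.77, 9.91 and 9.89 in P65 KO smoke, against 8.69, 8.46 and 8.61 in wild type smoke (difference 1.37 ± 0.05; adjusted p = 1.397e-10). Per3 and Per2, of the negative limb of the clock, rose by 1.22 and 0.85, and Tef and Hlf, clock-controlled transcription factors, by 1.23 and 0.84. Arntl, the activator BMAL1, fell by 0.74, with -0.71 in air and -0.77 in smoke. The time of day of tissue collection is not given in the sources used here, and its part in these values was not tested. Of 19 immediate early genes 12 rose and 2 fell, and 5 were shared, among them Jun (0.52 ± 0.05), Ier2 (0.51 ± 0.06) and Egr1 (0.38 ± 0.06). Without wild type air replicate 2 or P65 KO smoke replicate 2 the shared members were 3, a share near the 17.6% of all genes.

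Heart, mesothelial and fat genes were higher in P65 KO arrays. Of 19 cardiac and skeletal muscle genes 15 rose and none fell, and 6 were shared. Nppa stood at 9.76, 9.87 and 9.81 in P65 KO air, against 7.33, 7.40 and 7.51 in wild type air, and at 9.10, 9.16 and 9.12 in P65 KO smoke, against 6.32, 6.20 and 6.66 in wild type smoke. Myh7, a myosin heavy chain of heart and slow muscle, rose by 1.09 ± 0.05 and myoglobin, Mb, by 1.04 ± 0.07, while the skeletal muscle genes Acta1 and Myl1 were not called (-0.08 and -0.07). Of 12 mesothelial and adipocyte markers 9 rose and 5 were shared, among them mesothelin, Msln (1.02 ± 0.06), and the fat hormone gene Adipoq (1.13 ± 0.05, less in smoke by 0.41, adjusted p = 0.01442). Whether the RNA of these genes came from the lung itself or from tissue next to it, and how much each sample contained, was not tested.

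**Figure D3:**
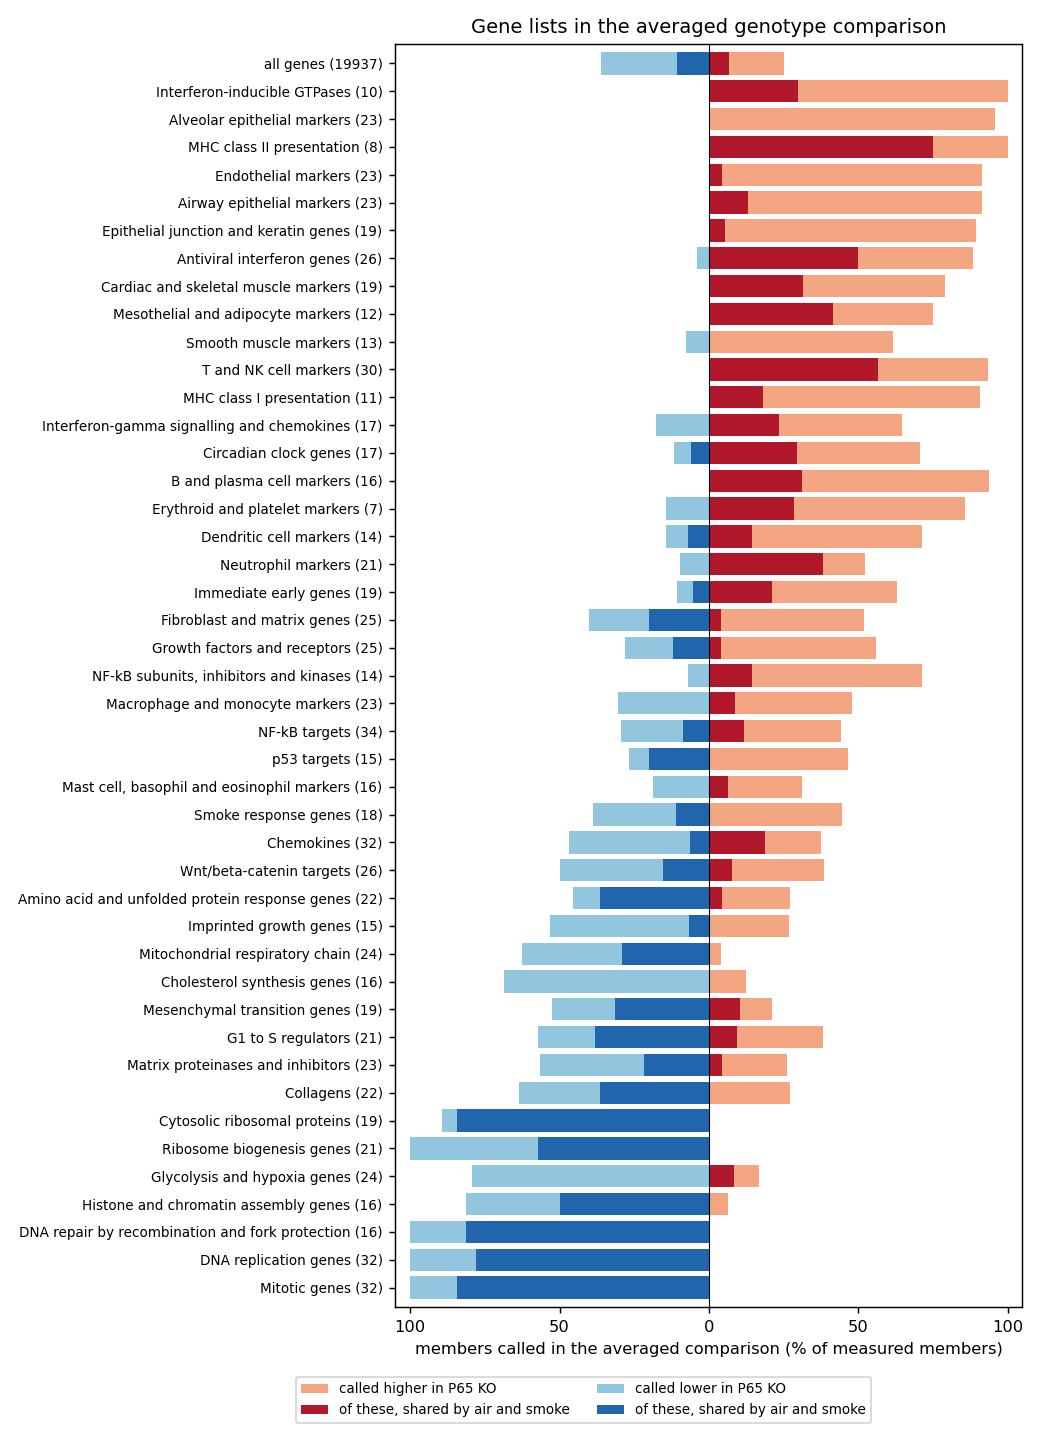
Share of measured members (horizontal axis, % of the number in brackets) called higher (right) or lower (left) in P65 KO arrays in the averaged comparison, for all 19937 genes (top row) and 44 gene lists, with the shared part in dark colour. Mitotic, replication and repair genes fill the lower side with mostly shared members, while alveolar and endothelial markers fill the upper side with almost none shared.

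**Figure D4:**
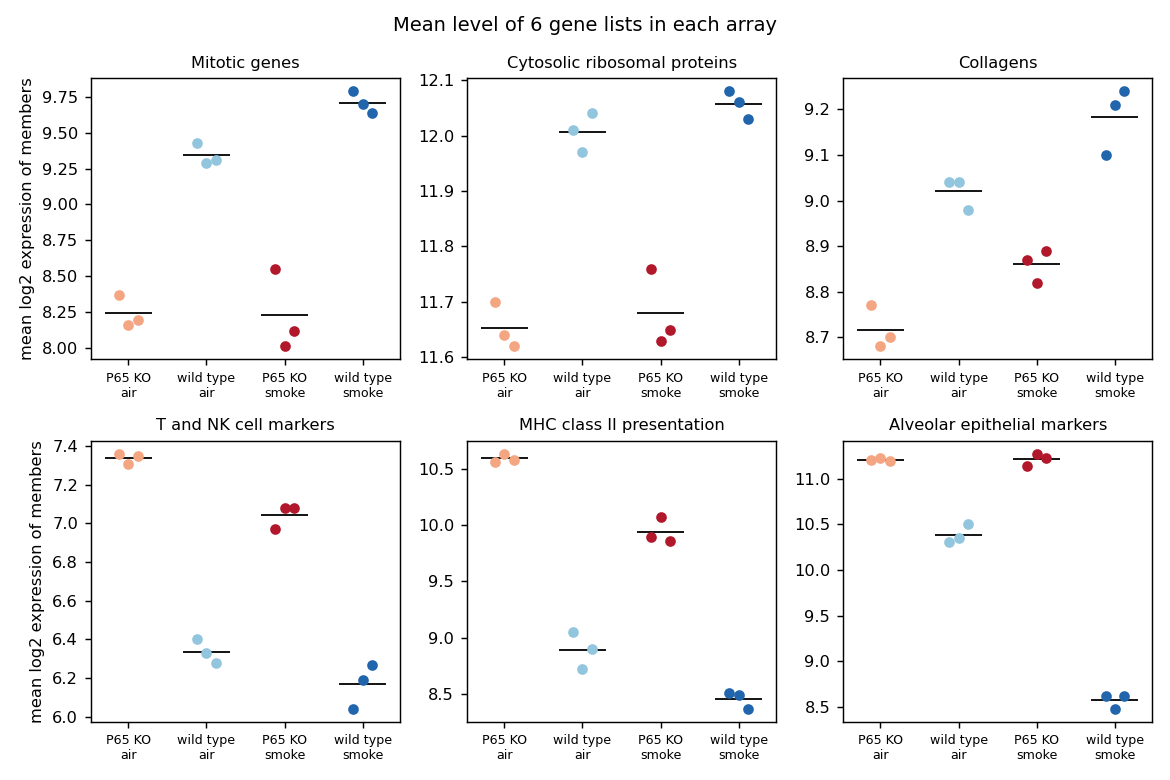
Mean log2 expression of the measured members (vertical axis) in each of the 12 arrays for 6 gene lists, with a line at the mean of each group of 3. In all 6 panels the P65 KO arrays lie on the same side of the wild type arrays in both exposures, and for the alveolar markers the wild type smoke arrays stand far below the rest, at 8.48 to 8.62.

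Several large averaged differences were not shared. Of 23 alveolar epithelial markers 22 rose on average and 0 were shared, with medians of 0.83 in air and 2.61 in smoke, and in 21 of them the smoke difference differed from that in air by the interaction test, which called 14.6% of all genes. Endothelial markers had 21 of 23 higher and 1 shared, Robo4, a receptor of the vessel wall (0.80 ± 0.04). With 1 of 6 arrays left out (P65 KO air replicate 1, wild type air replicate 3, P65 KO smoke replicate 2 or 3, or wild type smoke replicate 2 or 3) the shared endothelial markers were 2 or 3. Airway markers had 21 of 23 higher with 3 shared, or 1 without wild type air replicate 1. Scgb1a1, the club cell secretory protein, had an average of 2.53 ± 0.08 that combined 0.26 in air, which was not called, with 4.79 in smoke. The fold of such a gene in the averaged comparison describes neither exposure.

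Genes of glycolysis and hypoxia were lower on average, mostly through smoke. Of 24 members 19 fell and 4 rose, with medians of -0.39 in air and -1.05 in smoke, and the interaction was called for 19. The 2 shared members, Pfkfb3 and Pfkfb4, which make the regulator fructose-2,6-bisphosphate, rose by 1.34 ± 0.05 and 0.70 ± 0.06. Without P65 KO air replicate 1 or without P65 KO smoke replicate 2 there were 5 shared members. Myc, a driver of growth and of ribosome production, fell by 1.16 ± 0.10, with P65 KO levels of 10.31 to 10.95 and wild type levels of 11.12 to 12.24, and fell more in smoke (-1.60) than in air (-0.72). Of 16 cholesterol synthesis genes 11 fell and 2 rose and none was shared, with larger falls in air (median -0.49, against 0.04 in smoke).

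Macrophage markers differed between the exposures. Of 23 members 11 rose and 7 fell, with a median of 0.49 in air and -0.36 in smoke, and the interaction was called for 17. Csf1r, the receptor for macrophage colony-stimulating factor, stood at 10.61, 10.58 and 10.57 in P65 KO air, against 9.39, 9.32 and 9.37 in wild type air, and at 10.08, 10.02 and 9.99 in P65 KO smoke, against 10.04, 9.97 and 10.04 in wild type smoke. The groups were apart in air and overlapped in smoke, so its average of 0.62 ± 0.04 is that of 1.23 and 0.01. The 2 shared members, or 4 without wild type smoke replicate 1, were Lyz2, the lysozyme of myeloid cells, whose promoter is widely used to drive Cre in such cells (1.23 ± 0.07; P65 KO 13.25 to 13.36, wild type 11.70 to 12.47), and Mertk, a receptor for dying cells (0.49 ± 0.04). Lyz2 is also made by alveolar type II cells.

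NF-kB targets, the genes that RelA is known to drive, had no common direction in this tissue. The tissue also held cells of the transplanted tumour line, so the targets in the host cells cannot be read by themselves. Of 34 targets 15 rose and 10 fell, where 25.1% of all genes rose and 36% fell, and the median was 0.09, or -0.01 with each array centred on its median. The shared members were 4 that rose, namely Ccl5, Birc3, an inhibitor of apoptosis (0.81 ± 0.06), Cd40 (0.46) and Sod2 (0.33), and 3 that fell, namely Cxcl5, a neutrophil chemokine (-1.05 ± 0.09, equal in both exposures), Csf1 (-0.38) and Tnfaip2 (-0.32). Il6 and Relb were not called, at 0.04 and 0.02. Tnf was higher in air (0.68) and not called in smoke (-0.15), while Cxcl2 was not called in air (0.02) and lower in smoke (-2.26). Of 14 genes for NF-kB subunits, inhibitors and kinases 10 rose and 1 fell, and apart from Rela the 1 shared member was the deubiquitinase Cyld (0.36 ± 0.08). Neither was shared with median centring, and 1 of them was not shared in 7 of the 12 fits that leave out 1 array.

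Chemokines moved in both directions. Of 32 genes 12 rose and 15 fell, where 25.1% of all genes rose and 36% fell, and 8 were shared, where 17.6% of all genes were. Those that were higher were Ccl5, Cxcl9, Cxcl10, Cxcl12 (0.86 ± 0.05), Cxcl13 (0.92) and Cxcl16 (1.14 ± 0.09). Cxcl16, a membrane-bound chemokine for T cells, stood at 9.46, 9.46 and 9.49 in P65 KO air, against 8.59, 8.06 and 8.46 in wild type air, and at 9.55, 9.62 and 9.37 in P65 KO smoke, against 8.49, 8.16 and 8.38 in wild type smoke. The shared falls were Cxcl5 and Ccl25 (-0.59). Monocyte chemokines such as Ccl2 and Ccl7 fell on average by 0.88 and 0.78, with larger falls in smoke.

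Opposite directions in air and smoke were the clearest exceptions. Cyp1a1, an enzyme induced through the aryl hydrocarbon receptor, stood at 6.56, 6.54 and 6.30 in P65 KO air, against 7.68, 7.71 and 7.97 in wild type air, and at 11.46, 11.54 and 11.63 in P65 KO smoke, against 5.52, 5.67 and 5.77 in wild type smoke. Its average of 2.28 ± 0.07 joined a difference of -1.32 in air to one of 5.89 in smoke. The macrophage protein Cd5l had 0.68 in air and -2.92 in smoke, and the membrane protein Ms4a4a 0.94 and -1.53. In a model with exposure as a covariate and no interaction the averages of Cyp1a1, Cd5l and Ms4a4a were the same and none passed the test.

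**Figure D5:**
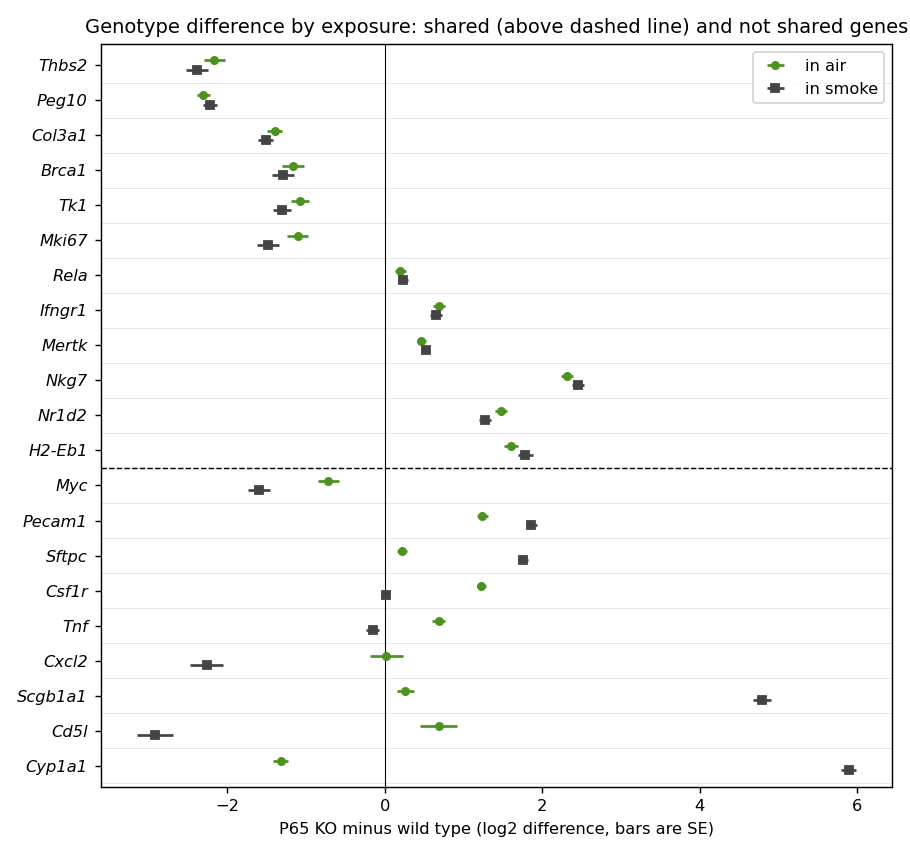
Genotype difference (horizontal axis, log2, P65 KO minus wild type) in air (circles) and in smoke (squares) with bars of 1 SE, for 12 shared genes above the dashed line and 9 genes not shared below it. The 2 symbols nearly coincide for Peg10, Rela and Ifngr1, and lie on opposite sides of 0 for Cd5l and Cyp1a1.

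The shared genes as a set were described by measures that the rule did not use. Their median level over all arrays was 8.51, against 7.99 for all called genes and 7.44 for all genes. It was 8.80 for the shared lower genes and 8 for the shared higher genes. The averaged effect of smoke was called for 7.01% of all genes as higher and for 12% as lower. Among the shared higher genes, 467 of 1356 were lower with smoke and 35 were higher, and among the shared lower genes 281 of 2151 were higher and 14 lower. Where a shared gene was also called for smoke, the P65 KO direction and the smoke direction were thus mostly opposite, as with Gzma, whose level was lower in smoke in both genotypes.

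Within the rule, the sizes also leaned to smoke. Of 3507 shared genes 2329 had the larger difference in smoke and 1178 in air (9398 and 2779 of all called genes), and the median ratio was 1.21. The interaction was called for 80 of them, 68 higher and 12 lower, and for 2780 the 95% interval of the difference between exposures lay within 0.5 on the log2 scale, as it did for 11438 of all 19937 genes. The ratio rule used the same differences, so these values describe the genes it chose and test nothing. At least 2-fold differences were found for 224 shared higher and 277 shared lower genes. These were 14.3% of shared genes, near the 12.7% of all called genes, where 7.75% of all genes had such a difference. The 6 P65 KO arrays did not overlap with the 6 wild type arrays for 3200 of the shared genes, a share that the rule itself favours, against 35% of all genes.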

How the data were processed

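The authors deposited log2 expression values made with RMA and Affymetrix Expression Console, per the submitters' processing notes, whose versions are not given in the sources used here. Total RNA was isolated with RNeasy columns and labelled by the whole-transcript sense protocol, per the labels' protocols. RMA equalises the distribution of probe intensities between arrays, so a shift of all genes together cannot be seen. The values of the 19937 genes used here were still not equal in distribution, with array medians from 7.26 to 7.51. The median of every P65 KO array lay above that of every wild type array. Quantile normalization of these gene values gave 1166 shared higher and 2551 shared lower genes.

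Of 34760 probe sets 21640 had 1 gene symbol in the platform annotation, 1321 had several and 11799 were not listed. Only those with 1 gene were used, and for 954 genes with several probe sets the brightest by mean was taken, which left 19937 genes. No array was left out. The deposited log2 values were fitted with limma 3.58.1 in R 4.3.3 as 4 group means (8 residual and 4.83 prior degrees of freedom), with Benjamini-Hochberg adjustment over all genes. The fit was tested on simulated data. Replicate numbers did not clearly pair arrays, and the fit has no block. Deviations of same-numbered arrays correlated with r of -0.36 to 0.37, over 0.1 in 7 of 18 pairs, and those of other arrays with -0.59 to 0.49. Values over 0.1 were less frequent among the other arrays, so these correlations do not settle whether the numbers pair arrays in part.

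Genes were named by a rule: the 12 largest shared rises and falls without overlap, and up to 3 shared members of each of 44 gene lists by smallest p. Genes of interest from the pathway and the tissue were added. For contrast, the 3 genes with opposite signs and the largest interaction were named. The 3 genes called in air alone and the 3 called in smoke alone were those with the largest ratio of air and smoke differences. That ratio is large wherever either difference is near 0. The interaction was not called for Ube2g2 (adjusted p = 0.08806) or Ehd2 (adjusted p = 0.07165). List members named beyond this rule were chosen after their values were seen. The comparison, the rule and the lists (878 of 951 members measured) were chosen with earlier results of these data known. Promoter windows are 250 bases upstream of RefSeq starts. Alternatives were 23, of which 12 left out 1 array.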

Additional observations from a re-analysis of the deposited data

Results flagged for a closer look

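These results are listed because the difference in smoke and the difference in air were not equal by the interaction test of limma (smoke difference minus air difference, log2, adjusted over all genes). In none of them was a cause tested.

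Among shared genes the interaction was -1.07 for Ly6i (adjusted p = 0.0123), -0.61 for H2-DMa (0.00779), -0.43 for the glycolytic regulator gene Pfkfb3 (0.00802) and -0.41 for Adipoq (0.0144), each a rise that was smaller in smoke. It was 0.82 for Lcn2 (0.0058), 0.61 for Cd3g (0.00198), 0.52 for Zbtb16 (0.0159), 0.45 for Cd79b (0.0431) and 0.43 for Lyz2 (0.04997), each a rise that was larger in smoke. Falls that were larger in smoke were Cenpf at -0.57 (0.0223), Fgfr1 at -0.41 (0.0292), Col6a2 at -0.36 (0.0145) and Egfr at -0.34 (0.0417).

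Among genes that were not shared it was 7.21 for Cyp1a1 (6.24e-12), -3.60 for Cd5l (4.11e-06), -2.47 for Ms4a4a (7.3e-07) and -1.67 for Ms4a6b, another gene of the MS4A membrane protein family (1.22e-05). The macrophage gene Aif1 had -0.97 (0.0234), Fam89a had -0.49 (0.0235) and 2610008E11Rik had 0.34 (0.0274). Of the genes of interest, Scgb1a1 had 4.53 (6.47e-10), Sftpc 1.53 (4.13e-08), the endothelial marker Pecam1 0.62 (0.000621) and Axin2 0.37 (0.0352). Cxcl2 had -2.28 (1e-04), Csf1r -1.21 (1.98e-07), Myc -0.88 (0.00688) and Tnf -0.84 (0.000155).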

How the results depend on the processing

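Over the alternatives, named genes kept direction and call in 2789 cases, lost the call in 23 and changed sign in 7. Sign changes were in uncalled genes: Relb at -0.061 with quantile normalization, -0.086 with median centring, -0.035 with array weights and below 0 with 3 of the 12 arrays left out (range over the 12 from -0.016 to 0.064, against 0.023 with all), and Il6 at -0.074 with centring. Calls of Cyp1a1, Cd5l, Ms4a4a and Tnf were lost in the additive model, of Ube2g2 in 8 settings, of Ehd2 in 5, of 2610008E11Rik with centring, of Ctnnb1 with quantile normalization and centring, and of Ccnd1 without wild type air replicate 1 or P65 KO smoke replicate 2 or 3. Centring called 11939 genes lower and turned the median of NF-kB targets to -0.015. With 1 array left out, 11038 to 13982 genes were called and 2896 to 3653 shared. The replicate block gave 12229 called and 3526 shared genes, against 12177 and 3507 without it, and 3439 genes were shared in both fits.

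The shared count followed the ratio limit, with 748 higher and 1289 lower at the stricter limit and 2238 higher at a limit of 2. At the stricter limit, shared mitotic genes were 7, replication genes 14, repair genes 8 and collagens 5. With the interval of the interaction within 0.5 in place of the ratio, they were 2 mitotic, 10 replication, 3 repair, 3 antiviral and 1 MHC class II gene. Leaving out 1 array gave 14 to 30 mitotic genes. At a ratio of 2, 20 ribosome biogenesis genes were shared. The causes were not tested. The number of arrays limits what differences can be told apart.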

Other observations

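Counts of further gene lists follow, where 25.1% of all genes rose, 36% fell and 17.6% were shared. Of 19 epithelial junction and keratin genes 17 rose (median 1.13), with 1 shared member, or 0 without wild type air replicate 1, and of 13 smooth muscle markers 8 rose and 1 fell with 0 shared. Of 14 dendritic cell markers 10 rose and 2 fell, with 2 shared rises and 1 shared fall. Of 25 growth factors and receptors 14 rose and 7 fell, with 4 shared. Of 15 imprinted growth genes 8 fell and 4 rose, and Peg10 was the 1 shared member, or 1 of 2 without P65 KO air replicate 2, P65 KO smoke replicate 1, or wild type smoke replicate 1 or 3. Of 16 mast cell, basophil and eosinophil markers 5 rose and 3 fell, with Hdc, the histidine decarboxylase that makes histamine, as the 1 shared member, or 1 of 2 without wild type smoke replicate 1. Of 7 erythroid and platelet markers 6 rose and 1 fell, with 2 shared, or 1 without P65 KO air replicate 1, wild type air replicate 1 or 3, or wild type smoke replicate 2. Of 18 smoke response genes 8 rose and 7 fell, with 2 shared falls, or 1 without P65 KO air replicate 1 or 3, P65 KO smoke replicate 2 or wild type smoke replicate 3.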
